A study of Mus musculus with 12 samples.

Results

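The genes described here are 37 integrated stress and amino acid synthesis genes, which were chosen by name as genes of the ATF4 pathway and its neighbours. Of these, 11 encode stress-response factors and regulators, 8 encode enzymes of serine synthesis and one-carbon metabolism, 6 encode other enzymes of amino acid synthesis, and 12 encode cytosolic tRNA synthetases. Each of the 37 had a row among the 23991 gene IDs of the expression files. A filter of at least 1 FPKM in at least 3 of the 12 libraries kept 36 of them and 10126 genes in all. FPKM is fragment number scaled by transcript length and by the size of the library, so levels of different genes can be set side by side. The enzyme gene Cth, which makes cysteine from cystathionine, was the member below the filter, at 0.243 to 1.10 FPKM.

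The RNA came from CD4+ T cells of male C57BL/6 mice aged 8 to 10 weeks that were wild type (WT) or Adcy10-/-, the latter written KO in library names. Adcy10 encodes soluble adenylyl cyclase, which makes cAMP inside the cell. Spleen or lymph node cells were enriched by magnetic negative selection and collected after 18 hours of Th17 culture, in baseline media or with added polarizing cytokines, with 3 libraries in each of the 4 groups. The labels describe 1 culture for all groups and do not divide its additions between the media: plate-bound anti-CD3 at 10 µg/mL, anti-CD28 at 2 µg/mL, IL-1β at 20 ng/mL, IL-6 at 25 ng/mL, IL-23 at 20 ng/mL, and 1 µg/mL each of antibodies that block interferon-γ and IL-4. The part of Adcy10 that the mutant lacks, and whether libraries of a group came from separate mice or cultures, are not stated, so p-values measure only the spread between these libraries.

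Cells that lack amino acids, fold proteins poorly or meet other stresses phosphorylate the initiation factor eIF2. General translation then slows while ATF4 is translated more, so much of the control of ATF4 lies in translation and is not read by mRNA levels. ATF4 and its partners induce genes for amino acid synthesis and import, tRNA charging, and feedback that restores translation. Activated T cells also use serine and one-carbon enzymes to make nucleotides, and ATF4 is known to support that program.

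The value of Adcy10 was 0 FPKM in each of the 12 libraries and so checks no genotype label. The files hold estimated FPKM without read counts, and depth is unknown. Library sums were 547870.3 to 594749.5 FPKM. CD4 T cell identity genes summed to 1758 to 2252 FPKM in each library, against 8.43 to 14.7 for CD8 genes, 1.88 to 49.1 for B cell markers, 15.1 to 102 for macrophage markers, 0.617 to 2.49 for dendritic cell markers, 0.652 to 60.04 for neutrophil markers, 0.443 to 168.3 for red cell markers and 0.0700 to 0.491 for NK markers.

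Expression of the members spanned more than 2 orders of magnitude. Atf4 itself stood highest, at a mean of 222 FPKM over the 12 libraries. The mitochondrial serine hydroxymethyltransferase gene Shmt2 followed at 218 FPKM, and Atf4 exceeded it in only 7 of 12 libraries. Next came the glycyl-tRNA synthetase gene Gars (143 FPKM), the serine synthesis gene Phgdh (141 FPKM), the asparaginyl-tRNA synthetase gene Nars (121 FPKM) and the serine synthesis gene Psat1 (119 FPKM). Each of the 8 serine and one-carbon genes had a mean of at least 34.2 FPKM (Psph). The stress factors other than Atf4 ranged from 1.56 FPKM for Chac1, a glutathione-degrading enzyme gene, to 47.7 FPKM for Eif4ebp1, a repressor of cap-dependent translation. Of the 36 pairs of neighbours in this order, 10 kept their order in all 12 libraries, so most neighbours changed places in at least 1 library.

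**Figure D1:**
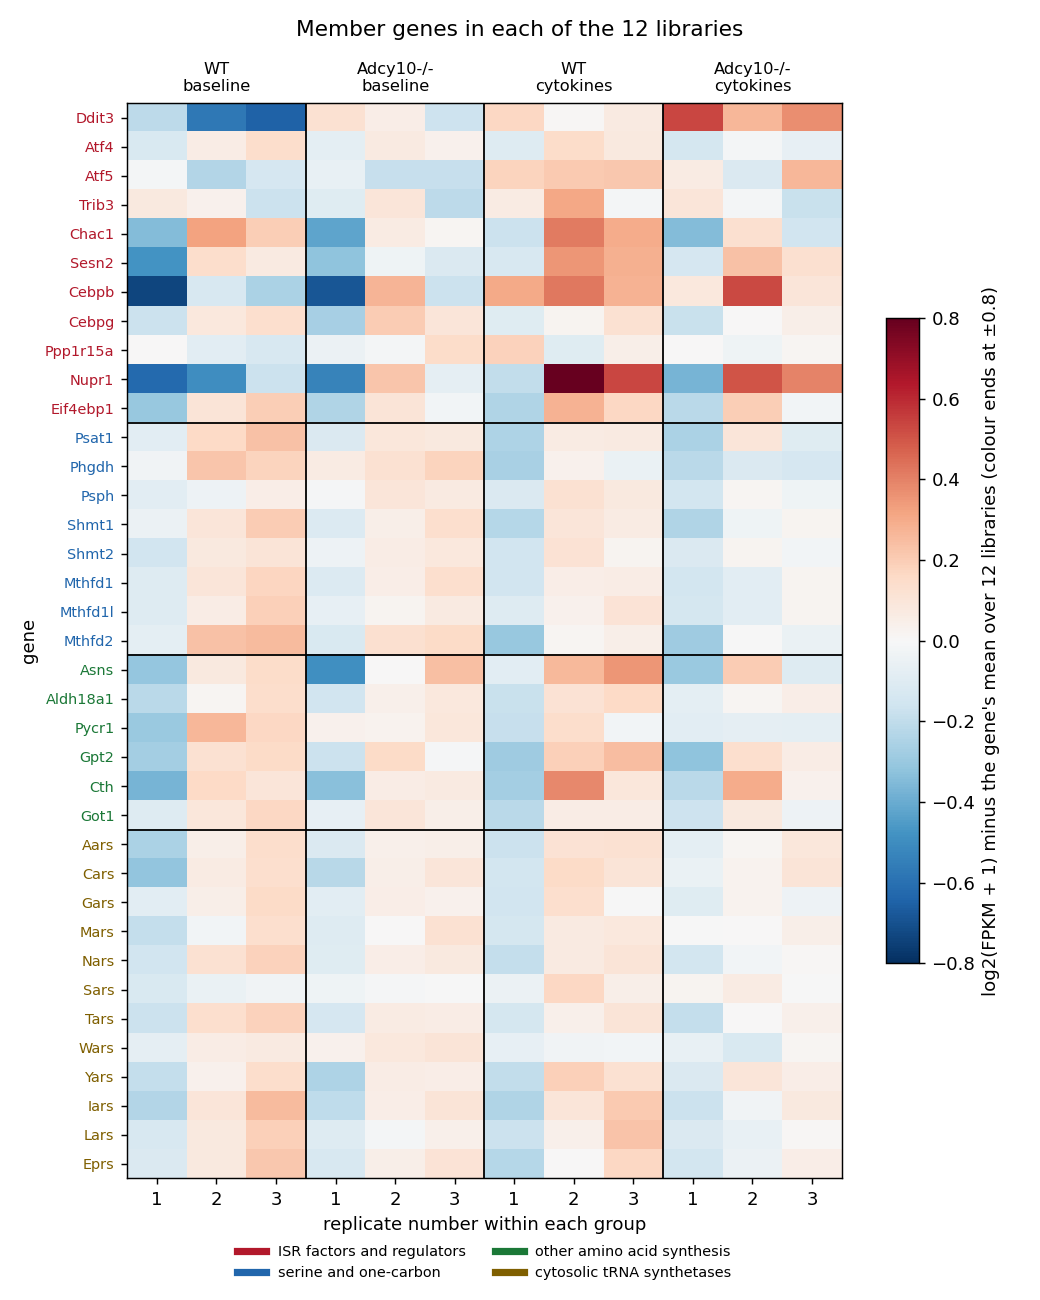
Heat map of log2(FPKM + 1) minus the gene's mean over 12 libraries, with the 37 genes in rows by role and the libraries in columns by group and replicate number. Ddit3 is lowest in WT baseline libraries and highest in Adcy10-/- libraries with cytokines, and most other genes are lowest in the libraries numbered 1.

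RefSeq promoters (build GRCm38.p6, from 250 bases before to 50 bases after the start) were found for 31 of the 37 members and were searched on both strands for 3 motifs. This build is not that of the expression files (mm9), and a match is a description of letters, not a bound site. The C/EBP-ATF response element, at which ATF4 pairs with a C/EBP factor, was written TGATGNAA. It occurred in 11 of 31 members, against 3.97% of all 32851 promoters and 4.51% of 27025 genes. The 11 were Trib3, Chac1, Nupr1, Asns, Pycr1, Got1, Aars, Gars, Tars, Yars and Iars. The cAMP response element TGACGTCA occurred in 1 of 31 members, the phosphatase subunit gene Ppp1r15a, 12 bases before its start, against 1.79% of promoters. The ER stress element occurred in 0 of 31, against 0.12% of promoters.

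The windows below show, on the strand of each gene, the 8 members whose match lies before the start and is printed in capitals, with up to 20 bases on each side.
Chac1 (chr2:119351029-119351076, plus strand): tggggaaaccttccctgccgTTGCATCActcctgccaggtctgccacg
Nupr1 (chr7:126625553-126625600, minus strand): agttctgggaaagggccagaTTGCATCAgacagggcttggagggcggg
Aars (chr8:111033710-111033757, plus strand): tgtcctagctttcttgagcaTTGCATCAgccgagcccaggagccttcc
Got1 (chr19:43524680-43524727, minus strand): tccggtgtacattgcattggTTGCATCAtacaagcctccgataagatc
Tars (chr15:11399659-11399693, minus strand): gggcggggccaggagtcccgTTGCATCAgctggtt
Pycr1 (chr11:120643824-120643871, minus strand): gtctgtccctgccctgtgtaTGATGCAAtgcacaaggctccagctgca
Asns (chr6:7693210-7693252, minus strand): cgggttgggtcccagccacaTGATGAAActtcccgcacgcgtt
Gars (chr6:55037951-55037998, plus strand): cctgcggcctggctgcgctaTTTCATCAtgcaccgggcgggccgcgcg
The match lay 193 bases before the start in Chac1, 110 in Nupr1, 112 in Aars, 102 in Got1, 15 in Tars, 103 in Pycr1, 23 in Asns and 30 in Gars. The 8 letters TTGCATCA, which are TGATGCAA read on the other strand, were shared by Chac1, Nupr1, Aars, Got1 and Tars, and also by Iars, where they lay 7 bases after the start. Pycr1 held the same letters as TGATGCAA, and so did Yars, 3 bases after the start. Asns held TGATGAAA and Gars the same letters on the other strand, TTTCATCA. Aars had a second match with the letters of Gars, 9 bases after the start.

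For comparison, the 150 bases before the start are shown for Ddit3 and Phgdh, on which the results below turn. Their whole 300-base window had no exact match to any of the 3 motifs. Variants of the motifs and bases outside the window were not searched, so these genes may still hold such sites.
Ddit3 (chr10:127290643-127290792, plus strand): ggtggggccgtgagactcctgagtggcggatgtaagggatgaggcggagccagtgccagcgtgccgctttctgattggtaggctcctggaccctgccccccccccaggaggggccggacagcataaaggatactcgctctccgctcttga
Phgdh (chr3:98339970-98340119, minus strand): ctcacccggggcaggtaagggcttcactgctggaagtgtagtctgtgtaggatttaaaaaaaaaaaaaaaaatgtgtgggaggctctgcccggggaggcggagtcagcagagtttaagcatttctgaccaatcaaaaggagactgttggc
The windows of Atf5 and Cebpb, which also changed with the cytokines, had no C/EBP-ATF match either.

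With polarizing cytokines, the stress factor genes Ddit3, Cebpb and Atf5 rose and the serine synthesis gene Phgdh fell, on average over the genotypes, while Atf4 and the tRNA synthetase genes did not pass. All changes are differences of log2(FPKM + 1), which understate the change of genes near 1 FPKM, and the threshold is a limma adjusted p under 0.05. Taken by genotype, 1 of 36 members rose and 0 fell in WT cells, where 4.93% of all tested genes were called. In Adcy10-/- cells 0 of 36 were called, where 4.27% of all tested genes were called. At an unadjusted limma p under 0.05 there were 4 of 36 members and 1551 of 10126 tested genes. Averaged over the genotypes, which uses all 12 libraries, 3 of 36 rose and 1 fell, against 13.2% of all tested genes. The members' share is thus at or below the background in each of these comparisons. The members' median log2 change was 0.02 in WT cells, -0.03 in Adcy10-/- cells and -0.02 on average, beside -0.01, -0.02 and -0.02 over all tested genes. The ranges of marker sums of other cells differed between the media too. Macrophage markers (5 of 6 listed had a row) summed to 15.1–20.1 FPKM in Adcy10-/- baseline media and 21.2–27.9 FPKM with cytokines, without overlap, and to 20.01–65.4 and 28.9–102 FPKM in WT cells. Neutrophil markers (3 of 4 had a row) summed to 5.01–19.3 and 11.4–60.04 FPKM in WT cells and to 1.16–5.43 and 0.652–15.5 FPKM in Adcy10-/- cells, with overlap in both. None of these markers was at 0 in all 12 libraries, and 0 of 2 tested in each list passed. The part of these cells in the members' changes was not tested. In bulk RNA such as this, a change in the share of a cell type and a change of RNA per cell cannot be told apart.

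Ddit3 encodes CHOP, a transcription factor of the late stress response. In WT cells it stood at 7.80, 5.83 and 5.499 FPKM in baseline media and at 10.4, 9.23 and 9.71 FPKM with cytokines. Adcy10-/- cells gave 10.1, 9.54 and 8.09 FPKM in baseline media and 13.8, 11.2 and 12.2 FPKM with cytokines. The groups did not overlap in either genotype, and each library with cytokines was above each baseline library of its genotype. Such a separation in both genotypes was found for Ddit3 and no other tested member, and for 5.51% of all tested genes. WT Ddit3 rose by a log2 change of 0.56 (SE 0.12, limma adjusted p = 0.0206). The change in Adcy10-/- cells was 0.39 (SE 0.12, adjusted p = 0.0982), and the average was 0.47 (SE 0.08, adjusted p = 0.00323). In WT cells the call was lost without WT baseline replicate 2 (adjusted p = 0.104) or 3 (0.0558), or without WT cytokines replicate 1 (0.0797) or 3 (0.0529), or with only the WT libraries in the fit (0.0551). The averaged call held whichever of the 12 libraries was left out. The opposite separation, below baseline in both genotypes, was found for 0 of 36 members and 5.73% of all tested genes.

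In RefSeq the span of Ddit3 overlaps the methionyl-tRNA synthetase gene Mars and the chromatin gene Mbd6, and whether reads were counted by strand is not given in the sources used here. Mars gave log2 changes of 0.03 and 0.01 with cytokines in WT and Adcy10-/- cells, and Mbd6 gave 0.05 and 0.10. Neither passed, and Mbd6 was at 7.23 to 11.1 FPKM in the 12 libraries, a level like that of Ddit3. Atf5 likewise overlaps Il4i1b, for which no value is given here, and Nup62. The values of Nup62 were 61.0 to 74.4 FPKM, with log2 changes of 0.02 and -0.04. How far reads of these neighbours enter the values was not tested.

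Cebpb encodes C/EBPβ, a basic leucine zipper factor that can pair with ATF4. It stood at 6.56, 10.5 and 9.55 FPKM in WT baseline media and at 14.5, 15.9 and 14.2 FPKM in WT cells with cytokines. The Adcy10-/- libraries held 6.82, 14.2 and 10.2 FPKM in baseline media and 12.3, 17.1 and 12.4 FPKM with cytokines. The WT groups did not overlap, as for 10.5% of all tested genes that were higher. The Adcy10-/- groups overlapped, and the libraries numbered 1 were the lowest of both baseline groups. The log2 change was 0.71 in WT cells (SE 0.22, limma adjusted p = 0.0985), 0.43 in Adcy10-/- cells (SE 0.22, adjusted p = 0.416) and 0.57 on average (SE 0.16, adjusted p = 0.0346). The averaged call was lost without any 1 of 7 libraries (WT baseline 1, KO baseline 1 or 3, WT cytokines 1, 2 or 3, KO cytokines 2; adjusted p = 0.0536 to 0.0783) and with no expression filter (adjusted p = 0.0719).

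Atf5 encodes a factor that, like ATF4, is controlled in translation. It stood at 4.48, 3.72 and 4.06 FPKM in WT baseline media and at 5.29, 5.41 and 5.44 FPKM in WT cells with cytokines. Its Adcy10-/- values were 4.32, 3.88 and 3.89 FPKM in baseline media and 4.81, 4.12 and 5.66 FPKM with cytokines. The WT groups did not overlap, as for 10.5% of all tested genes that were higher. KO cytokines replicate 2 lay within the range of its baseline group. The log2 change was 0.33 in WT cells (SE 0.09, limma adjusted p = 0.0738), 0.21 in Adcy10-/- cells (SE 0.09, adjusted p = 0.306) and 0.27 on average (SE 0.07, adjusted p = 0.0199). The averaged call was lost without WT baseline replicate 2 (adjusted p = 0.0588) or KO baseline replicate 3 (0.0513).

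**Figure D2:**
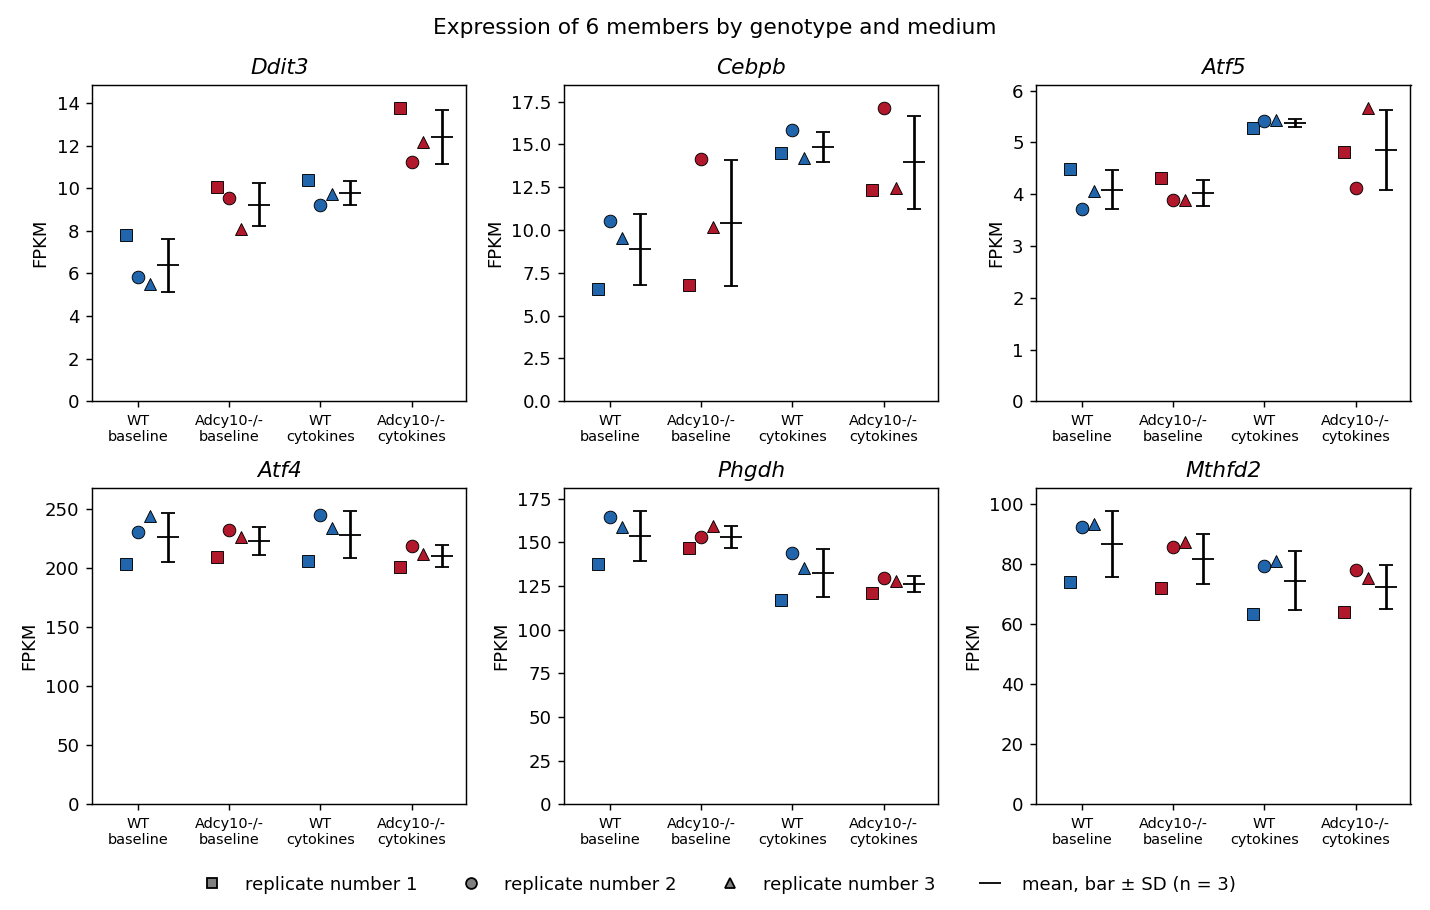
FPKM of 6 members (y axis from 0) in the 4 groups, with 1 point per library, its shape giving the replicate number, and the mean ± SD (n = 3) beside the points. Ddit3 is higher with cytokines and in Adcy10-/- libraries without overlap, Atf4 lies between 200.8 and 244.9 FPKM throughout, and the libraries numbered 1 are the lowest of each group for Atf4, Phgdh and Mthfd2.

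Atf4 did not pass in any comparison. It stood at 203.6, 231.0 and 244.1 FPKM in WT baseline media and at 206.2, 244.9 and 233.8 FPKM in WT cells with cytokines. Adcy10-/- cells gave 209.7, 232.6 and 226.6 FPKM in baseline media and 200.8, 219.0 and 211.7 FPKM with cytokines. These ranges overlap in both genotypes, with log2 changes of 0.01 (95% interval -0.16 to 0.19) and -0.08 (-0.26 to 0.09).

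Of the 11 stress factors and regulators, 10 had a log2 change above 0 in WT cells (11 with median-ratio scaling) and 7 in Adcy10-/- cells (8 with that scaling). Over all tested genes, 45.9% lay above 0 in WT cells and 42.4% in Adcy10-/- cells. Members share libraries, so no test is given for these counts. Sesn2, which encodes a leucine sensor that restrains mTORC1, stood at 2.84, 4.91 and 4.64 FPKM in WT baseline media and at 3.91, 5.83 and 5.52 FPKM in WT cells with cytokines. Its Adcy10-/- values went from 3.28, 4.22 and 3.95 FPKM to 3.87, 5.30 and 4.85 FPKM. The groups overlap, yet within each replicate number the library with cytokines was the higher, in 3 of 3 pairs of each genotype. Nupr1, a small stress-induced chromatin protein gene, stood at 0.622, 0.766 and 1.21 FPKM in WT baseline media and at 1.17, 3.40 and 2.61 FPKM in WT cells with cytokines. The Adcy10-/- libraries held 0.722, 1.91 and 1.37 FPKM and then 0.927, 2.54 and 2.29 FPKM, again higher with cytokines in 3 of 3 pairs. Nupr1 lies near the filter, at 1 FPKM or more in 8 of 12 libraries. The pseudokinase gene Trib3, an inhibitor of ATF4 activity, held 3.69, 3.54 and 2.94 FPKM in WT baseline media and 3.64, 4.50 and 3.39 FPKM in WT cells with cytokines, with 3.15, 3.75 and 2.83 and then 3.74, 3.38 and 2.93 FPKM in Adcy10-/- cells. Chac1 held 0.975, 2.14 and 1.87 FPKM and then 1.23, 2.35 and 2.08 FPKM in WT cells, and 0.877, 1.63 and 1.53 FPKM and then 0.975, 1.74 and 1.26 FPKM in Adcy10-/- cells. The groups of both genes overlap. Their averaged log2 changes were 0.09 (SE 0.08) and 0.06 (SE 0.15), and neither passed.

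Phgdh and Psat1 encode the first enzymes of serine synthesis from a glycolytic intermediate. Phgdh stood at 137.4, 164.2 and 159.0 FPKM in WT baseline media and at 117.1, 144.1 and 135.5 FPKM in WT cells with cytokines. The Adcy10-/- libraries held 146.8, 153.0 and 159.1 FPKM in baseline media and 121.0, 129.7 and 127.7 FPKM with cytokines. The Adcy10-/- groups did not overlap, as for 12.3% of all tested genes that were lower. The WT groups overlapped through the baseline library numbered 1. Phgdh fell by a log2 change of 0.25 on average (SE 0.06, limma adjusted p = 0.0165). Its changes of -0.21 in WT cells (adjusted p = 0.176) and -0.28 in Adcy10-/- cells (0.0938) did not pass.

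The other 7 serine and one-carbon genes did not pass over the 12 libraries without a replicate block. On average over the genotypes, 13.2% of all tested genes were called in that fit. An averaged log2 change below 0 was found for 8 of 8, with a median of -0.09, where 43.4% of all tested genes lay above 0. It was 8 of 8 also with median-ratio scaling or quantile normalization, and 7 of 8 with libraries numbered 2 and 3 only. Psat1 stood at 111.1, 131.7 and 139.2 FPKM in WT baseline media and at 99.4, 123.4 and 123.9 FPKM in WT cells with cytokines. Its Adcy10-/- values went from 108.7, 125.8 and 124.7 FPKM to 98.9, 126.1 and 110.2 FPKM, so the groups overlapped in both genotypes. Mthfd2, a mitochondrial folate enzyme gene, stood at 74.0, 92.5 and 93.5 FPKM in WT baseline media and at 63.4, 79.3 and 80.9 FPKM in WT cells with cytokines. In Adcy10-/- cells it went from 72.0, 85.8 and 87.3 FPKM to 64.2, 78.1 and 75.3 FPKM. The Mthfd2 groups overlap only through the libraries numbered 1, and its value was lower with cytokines in 3 of 3 pairs of each genotype. Shmt2, its upstream partner in the mitochondrion, gave group means of 220.1 ± 21.2 and 218.0 ± 20.5 FPKM in WT cells (SD, n = 3), with 195.8, 229.8 and 234.6 FPKM in baseline media and 195.9, 236.5 and 221.6 FPKM with cytokines. The Adcy10-/- libraries held 211.7, 227.2 and 231.5 FPKM and then 200.9, 221.1 and 214.3 FPKM. The Shmt2 groups overlap in both genotypes, and WT cells had a log2 change of -0.01 (95% interval -0.19 to 0.17).

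Among the other amino acid enzymes 0 of 5 tested passed. The shares of all tested genes called were 4.93% in WT cells, 4.27% in Adcy10-/- cells and 13.2% on average. Asns, which encodes asparagine synthetase, stood at 6.76, 9.14 and 9.64 FPKM in WT baseline media and at 8.09, 10.5 and 11.3 FPKM in WT cells with cytokines. Its Adcy10-/- values went from 5.86, 8.64 and 10.4 FPKM to 6.82, 10.1 and 7.97 FPKM. These groups overlap, and the log2 changes were 0.21 (SE 0.20) and 0.02 (SE 0.20). The mitochondrial proline synthesis gene Aldh18a1 and the transaminase genes Got1 and Gpt2 had averaged changes of 0.03, -0.08 and 0.01. Pycr1, which encodes the last enzyme of proline synthesis, held 0.762, 1.60 and 1.42 FPKM and then 0.898, 1.38 and 1.13 FPKM in WT cells, which overlap. Its Adcy10-/- values went from 1.21, 1.21 and 1.30 FPKM to 1.04, 1.06 and 1.05 FPKM without overlap, as for 12.3% of all tested genes that were lower, and its averaged change of -0.10 did not pass (limma adjusted p = 0.578). Of the 12 cytosolic tRNA synthetase genes, whose enzymes load tRNAs with amino acids, 0 passed in either genotype. At the shares of 4.93% and 4.27%, lists as short as these 2 hold few calls in any case. The changes of the synthetase genes ran from -0.08 to 0.12 in WT cells and from -0.13 to 0.05 in Adcy10-/- cells, with medians of -0.02 and -0.03.

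**Figure D3:**
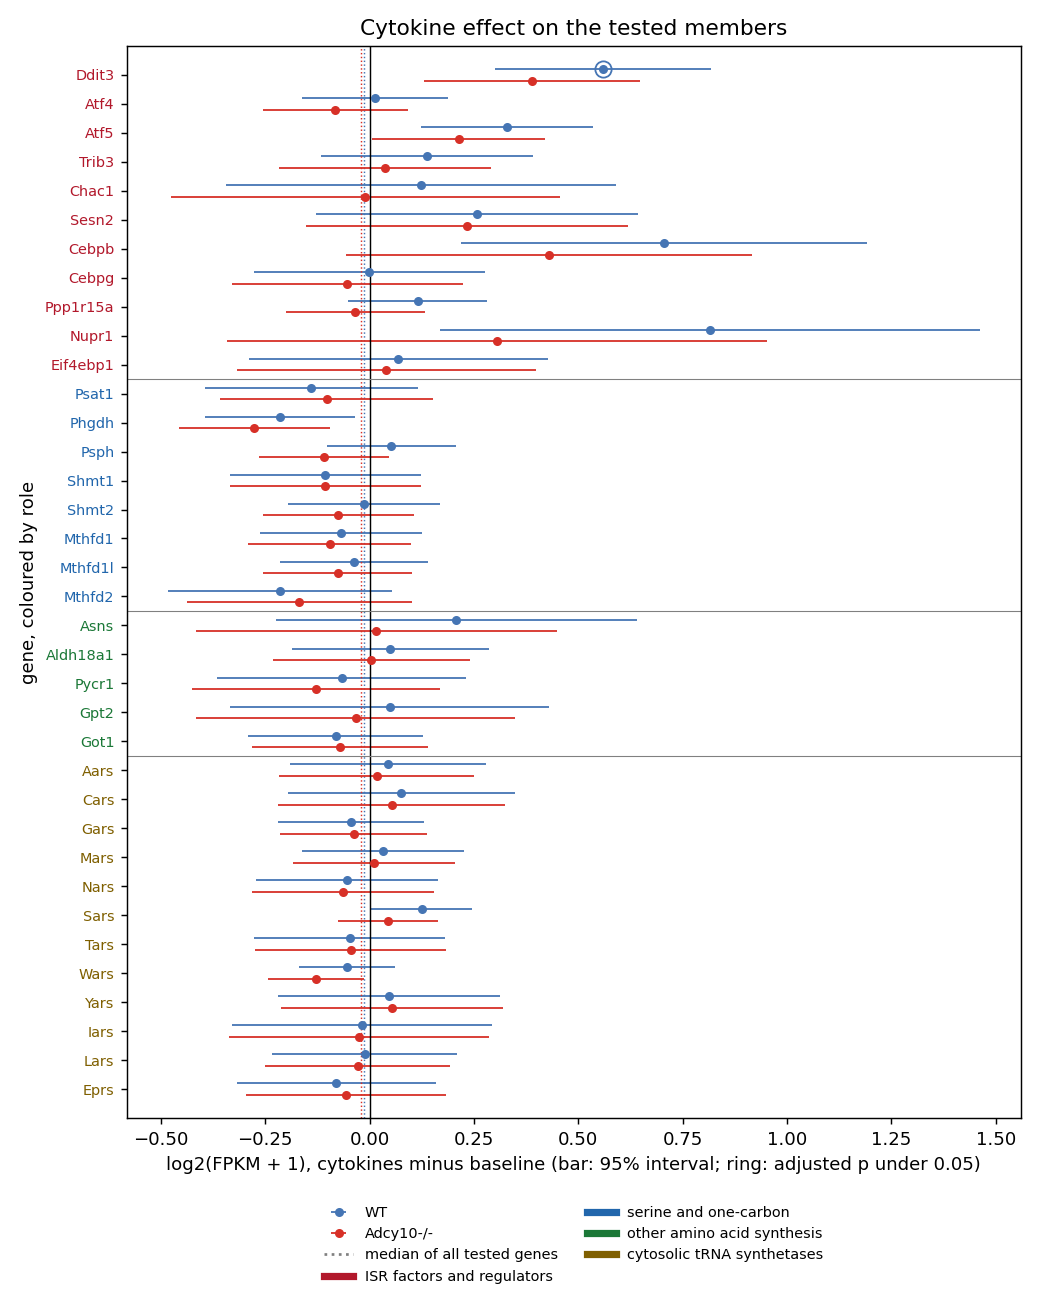
Difference of log2(FPKM + 1), cytokines minus baseline, for the 36 tested members in WT and Adcy10-/- cells, with 95% intervals and dotted lines at the medians of all tested genes. A ring marks an adjusted p under 0.05, which only WT Ddit3 reached (0.56), and the tRNA synthetase genes lie between -0.13 and 0.12.

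Libraries with the same replicate number deviated together, and a fit with the number as a block called more members. In WT cells 7 passed: Ddit3, Atf5, Sesn2, Cebpb and Nupr1 rose and Phgdh and Mthfd2 fell, against 14.8% of all tested genes. In Adcy10-/- cells Ddit3 rose and Phgdh and Mthfd2 fell, against 10.7%. With the number paired only within a genotype, Sesn2 also rose in Adcy10-/- cells (adjusted p = 0.0402). Averaged over the genotypes 11 passed, with the same 5 genes higher and Phgdh, Psat1, Shmt1, Mthfd1, Mthfd2 and the tryptophanyl-tRNA synthetase gene Wars lower, against 25.9% of all tested genes, and 11 again with pairs within a genotype, against 26.7%. The blocked adjusted p in WT cells was 0.00167 for Ddit3, 0.00714 for Cebpb, 0.025 for Atf5, 0.0416 for Sesn2, 0.00649 for Nupr1, 0.015 for Phgdh and 0.004 for Mthfd2. In Adcy10-/- cells it was 0.0094 for Ddit3, 0.00511 for Phgdh and 0.0132 for Mthfd2. On average it was 0.0278 for Psat1, 0.0207 for Shmt1, 0.0431 for Mthfd1 and 0.0414 for Wars, with averaged log2 changes of -0.12, -0.11, -0.08 and -0.09 in that order.

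Some genes passed only with the block and for the average. Shmt1, the cytosolic partner of Shmt2, stood at 64.6, 71.5 and 77.0 FPKM in WT baseline media and at 56.9, 71.5 and 69.9 FPKM in WT cells with cytokines. Its Adcy10-/- values went from 61.9, 69.1 and 73.5 FPKM to 56.5, 65.2 and 68.1 FPKM, and the groups overlapped in both genotypes. Mthfd1, a cytosolic folate enzyme gene, went from 76.7, 88.0 and 92.6 FPKM to 74.0, 85.3 and 85.8 FPKM in WT cells, and from 76.2, 85.4 and 90.5 FPKM to 74.2, 77.6 and 83.6 FPKM in Adcy10-/- cells, again with overlap. Wars went from 62.9, 68.9 and 69.6 FPKM to 63.4, 64.9 and 65.3 FPKM in WT cells. In Adcy10-/- cells it went from 67.9, 70.3 and 71.1 FPKM to 63.5, 60.9 and 67.0 FPKM. These groups did not overlap, as for 12.3% of all tested genes that were lower.

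Leaving out all 4 libraries numbered 1, a check chosen after the data were seen, gave 2 members higher in WT cells (Ddit3 and Nupr1), where 3.74% of tested genes were called. Adcy10-/- cells gave 1 lower (Phgdh), against 2.19%. On average it gave 2 higher (Ddit3 and Nupr1) and 2 lower (Phgdh and Mthfd2), against 9.26%. The averaged calls of Atf5 (adjusted p = 0.0541) and Cebpb (0.0741) were lost there.

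Between the genotypes 0 of 36 members were called by limma in baseline media, with cytokines or on average over the media, and 0% of all tested genes were called in each of these comparisons. At an unadjusted p under 0.05 there was 1 member in each, Ddit3, among 118, 202 and 180 genes. The Ddit3 values given above were higher in Adcy10-/- cells than in WT cells without overlap in both media, as for 9 of 10126 tested genes (0.0889%) and no other tested member. Group means were 6.38 ± 1.24 and 9.23 ± 1.02 FPKM in baseline media (SD, n = 3), and 9.78 ± 0.583 and 12.4 ± 1.27 FPKM with cytokines. The log2 difference was 0.48 in baseline media (SE 0.12, limma adjusted p = 1.00), 0.31 with cytokines (SE 0.12, adjusted p = 1.00) and 0.39 on average (95% interval 0.21 to 0.58, adjusted p = 0.796). The ranges of marker sums of other cells differed between the genotypes too, although 0 of 2 tested macrophage and 0 of 2 tested red cell markers passed. Macrophage sums above 43.6 FPKM came only from libraries numbered 1. Macrophage markers summed to 28.9 to 102 FPKM in WT cells with cytokines and to 21.2 to 27.9 FPKM in Adcy10-/- cells with cytokines, without overlap, and to 20.01 to 65.4 and 15.1 to 20.1 FPKM in baseline media. Red cell markers reached 168.3 FPKM in Adcy10-/- baseline media and 109.2 FPKM in Adcy10-/- cells with cytokines, against 16.2 and 21.5 FPKM in WT cells. The lowest red cell sums were 0.575 and 0.443 FPKM in those Adcy10-/- groups and 1.43 and 0.818 FPKM in WT cells, so the ranges overlap. With cytokines, dendritic cell markers (1 of 4 tested) summed to 1.55 to 2.18 FPKM in WT cells and 0.617 to 1.44 FPKM in Adcy10-/- cells, without overlap. Neutrophil sums were 5.01 to 19.3 and 1.16 to 5.43 FPKM in baseline media, and 11.4 to 60.04 and 0.652 to 15.5 FPKM with cytokines, with overlap. Ranges of B cell, CD8 and NK markers overlapped in both media. The part of these cells in the Ddit3 difference was not tested. That difference did not pass over all genes. It was positive in 3 of 3 number pairs in each medium, which follows from the lack of overlap and adds nothing to it. The genotype comparisons use the same libraries as the cytokine comparisons, so these values are not independent of those above. The overlapping genes Mars and Mbd6 gave averaged differences of 0.02 and 0.16.

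For the other members the genotype values were small beside their intervals. With cytokines 34 of 36 members had a log2 difference below 0 (31 with median-ratio scaling and 26 with quantile normalization), and their median log2 difference was -0.06 (-0.04 and -0.02 with those scalings), beside -0.01 over all tested genes, of which 43.0% lay above 0. The count rests on the libraries numbered 2 and 3: within the pair of libraries numbered 1 only 15 of 36 were below 0, against 31 and 33 within numbers 2 and 3. In baseline media 23 of 36 were below 0 (22 and 21 with those scalings), with a median of -0.02. Of all tested genes 47.5% lay above 0 there. Members share libraries and are not independent replicates, so no test is given for these counts. The lowest averaged differences were those of Chac1 at -0.24 (95% interval -0.57 to 0.09) and Asns at -0.15 (-0.45 to 0.16). Averaged over the media, Atf4 gave -0.07 (-0.19 to 0.06), Phgdh -0.03 (-0.16 to 0.10) and Shmt2 -0.01 (-0.13 to 0.12). These intervals bound the difference in either direction and do not show that the genotypes are alike.

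**Figure D4:**
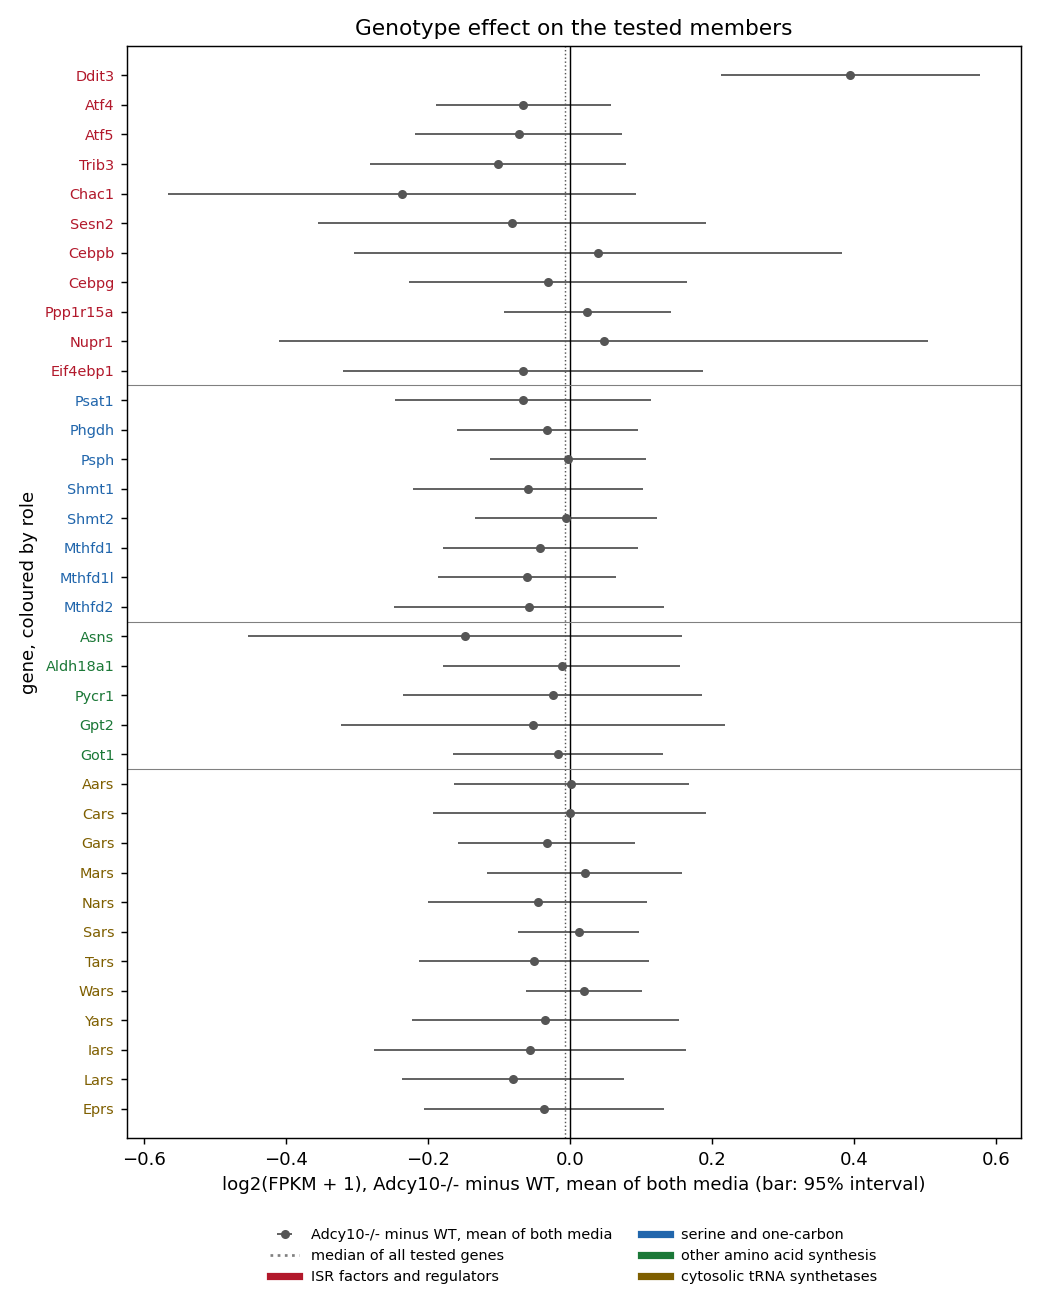
Difference of log2(FPKM + 1), Adcy10-/- minus WT averaged over both media, for the 36 tested members with 95% intervals and a dotted line at the median of all tested genes. The interval of Ddit3 (0.21 to 0.58) lies above 0, and those of the other 35 members include 0.

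Whether the cytokine effect differed between the genotypes was tested as an interaction, Adcy10-/- minus WT. Limma called 0 of 36 members and 0% of all tested genes, and 0 members and 112 genes had an unadjusted p under 0.05. The interaction was below 0 for 29 of 36 members (27 with median-ratio scaling and 23 with quantile normalization). Of all tested genes 45.8% lay above 0. Under each of these scalings it was below 0 for 11 of 11 stress factors and regulators, and for 10 of 11 with libraries numbered 2 and 3 only. Without 1 library in turn it ran from -0.17 to 0.17 for Sesn2 and from -0.31 to 0.07 for Chac1. Members share libraries, so no test is given for these counts. The interaction was -0.17 for Ddit3 (95% interval -0.53 to 0.20), -0.28 for Cebpb (-0.96 to 0.41) and -0.51 for Nupr1 (-1.42 to 0.40).

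The members also differed by replicate number, a pattern described here without a test. The 4 libraries numbered 1 had a lower mean log2(FPKM + 1) than the 8 numbered 2 and 3 for 32 of 36 tested members. For 28 of 36 members (77.8%) the library numbered 1 was the lowest in 4 of 4 groups, against 16.2% of all tested genes. The median shift of the members was -0.23, against -0.02 over all tested genes, and it was -0.20 with median-ratio scaling or quantile normalization. The library numbered 1 was lowest in all groups for 8 of 8 serine and one-carbon genes, 10 of 12 tRNA synthetase genes, 4 of 5 other amino acid enzymes and 6 of 11 stress factors. The largest shifts were those of Nupr1 (-0.65), Chac1 (-0.48), Asns (-0.44) and Sesn2 (-0.40).

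Ddit3 went the other way, with a shift of 0.23, and was the only tested member that was highest in the library numbered 1 in 4 of 4 groups. Atf5 (0.06), Trib3 (0.05) and Ppp1r15a (0.06) were the other members above 0, and the same 4 were above 0 with either of those scalings. Marker levels moved with the number too. All 6 B cell markers were lowest in the library numbered 1 of each group, with a sum of 1.88 to 7.55 FPKM there and 22.5 to 49.1 FPKM in numbers 2 and 3. CD4 identity genes were higher in number 1 for 10 of 10, with a sum of 2125 to 2252 FPKM against 1758 to 2070 FPKM. Of the other tested markers, both of the CD8, red cell and neutrophil lists and the 1 dendritic cell marker were lower in number 1 on average. Both macrophage markers were higher on average (shifts 0.06 and 0.70), and 0 of 2 were highest in number 1 in all 4 groups. The macrophage sum ran from 15.1 to 102 FPKM in number 1 and from 16.9 to 43.6 FPKM in numbers 2 and 3. The part of these markers in the members' shift was not tested.

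**Figure D5:**
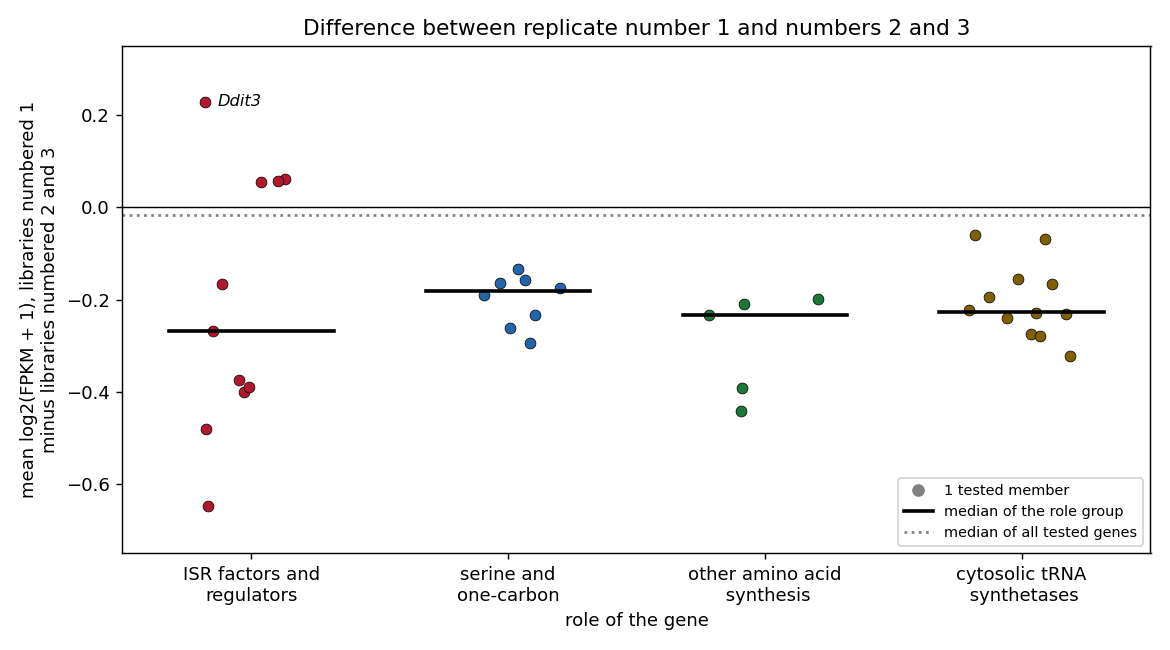
Mean log2(FPKM + 1) of the 4 libraries numbered 1 minus that of the 8 numbered 2 and 3, with 1 point per tested member, a bar at the median of each role and a dotted line at the median of all tested genes (-0.02). Every serine, amino acid and tRNA synthetase gene lies below 0, and Ddit3 lies at 0.23.

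Other genes of the pathway, from lists that hold none of the members, were read in the same fits. Among further targets of ATF4, 14 of 21 listed genes were tested, and 2 rose and 2 fell in WT cells. There 4.93% of all tested genes were called, of which 268 rose and 231 fell. Ddit4, an inhibitor of mTORC1, stood at 19.01, 17.7 and 19.8 FPKM in WT baseline media and at 24.2, 27.9 and 27.0 FPKM with cytokines. It rose without overlap by 0.46 (limma adjusted p = 0.00469) and by 0.46 in Adcy10-/- cells (0.00485). Nfil3, a leucine zipper factor gene, rose by 1.24 in WT cells (adjusted p = 0.0402) and gave 1.10 in Adcy10-/- cells (0.0691). Atf3, a stress-induced factor that dampens transcription, fell by 0.74 (adjusted p = 0.0154) and by 0.86 (0.00752), from 9.86 ± 1.48 to 5.49 ± 0.856 FPKM in WT cells (SD, n = 3). The growth arrest gene Gadd45b fell by 0.46 (adjusted p = 0.00927) and by 0.75 (0.000612). The called targets on this list therefore moved in both directions, as did the called genes among all tested genes.

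In the ER chaperone arm of the unfolded protein response, 16 of 17 listed genes were tested. Xbp1, its transcription factor, rose by 0.46 in WT cells (limma adjusted p = 0.0471) and by 0.50 in Adcy10-/- cells (0.0329). The disulfide isomerase gene Pdia6 rose in WT cells (0.18, adjusted p = 0.0474) and the sensor gene Atf6 in Adcy10-/- cells (0.42, adjusted p = 0.035). On average these 3 and the chaperone gene Calr (0.11) rose and 0 fell, against 13.2% of all tested genes called. With the replicate block 8 rose and 1 fell, against 25.9%.

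The upstream and parallel lists are set beside the shares of all tested genes called: 4.93% in WT cells, 4.27% in Adcy10-/- cells and 13.2% on average. At these shares lists of 9 to 17 genes hold few calls in any case, so a count of 0 is no trait of a list. Of 15 tested genes for eIF2 kinases, eIF2 and eIF2B 0 passed in either genotype or on average, with Impact, an inhibitor of GCN2, at the smallest p in WT cells. Of 9 tested amino acid transporters (12 listed) 0 passed, and of 17 other one-carbon, methionine and nucleotide enzymes (21 listed) 0 passed, with averaged medians of -0.08 for each list. With the replicate block, 3 of the 9 transporters and 6 of the 17 enzymes fell on average, where 25.9% of all tested genes were called. Of 11 other cytosolic tRNA synthetase and scaffold genes, the valyl-tRNA synthetase gene Vars fell on average (-0.16, limma adjusted p = 0.0418). Of 17 mitochondrial tRNA synthetase genes 0 passed. In the library numbered 1, 12 of 17 other one-carbon enzymes and 7 of 11 other cytosolic synthetases were lowest in all 4 groups, but 1 of 17 mitochondrial synthetases was.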

How the data were processed

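The deposited values of 12 libraries (4 groups of 3) are FPKM that the authors computed for each gene. The submitters' processing notes name STAR 2.4.0f1, SAMtools 0.1.19, Cufflinks and HTSeq, and genome build mm9. Depth is unknown, so error rests on the spread between libraries. Of 24488 entries per file, the 755 that shared 258 gene IDs were summed.

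Values were used as log2(FPKM + 1) without further scaling. Genes reaching 1 FPKM in 3 or more libraries were fitted with limma 3.58.1 (R 4.3.3, with version 1.17.8 of data.table) as 4 group means with a variance trend, and 7 contrasts were adjusted (Benjamini-Hochberg) over the 10126 tested genes, with a threshold of 0.05. The scripts were tested on simulated data. Tables and figures used Python 3.11.15, numpy 2.4.6, pandas 2.3.3 and matplotlib 3.10.9. Alternatives were other pseudocounts, filters, scalings and variance settings, the replicate block, and leaving out libraries.

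Members and lists were chosen with earlier results of these data known. Per-library values were set for members called in any contrast, with or without the block, and for a panel of Ddit3, Atf4, Asns, Psat1, Phgdh, Mthfd2, Shmt2, Trib3 and Chac1. From other lists, called genes or the smallest p were named.

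Pairing was checked on residuals before blocked calls were compared. Residual correlations were 0.294 to 0.536 for the 6 pairs sharing number and genotype, and 0.074 to 0.523 for the 6 pairs sharing number and medium across genotypes. Among libraries of other groups, each of the 12 libraries correlated best with one of its own number. Pairs of unlike number sharing a medium across genotypes ran from -0.56 to 0.366, so some exceeded the lowest pairs of like number. The block is therefore given beside the cytokine effects, and in the closing section for genotype contrasts that use the baseline pair at 0.074.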

Additional observations from a re-analysis of the deposited data

How the results depend on the processing

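No called value changed its direction under an alternative. The number of members called for the cytokine effect in WT cells was 1, and it became 7 with the replicate block, 7 with the block within genotype, 2 with quantile normalization, 2 with libraries numbered 2 and 3 only, 0 with only the compared groups in the fit, and 0 to 2 without 1 library in turn. In Adcy10-/- cells it was 0, and it became 3 with the block, 4 with the block within genotype, 1 with libraries numbered 2 and 3 only, 1 with only the compared groups, and 0 to 1 without 1 library. On average it was 4, and it became 11 with either block and 2 to 5 without 1 library (2 without KO baseline replicate 3). The block removes the spread between replicate numbers from the error, and otherwise the cause was not tested. Over all genes the block called 1502 in WT cells (499 without it), 1086 in Adcy10-/- cells (432) and 2625 on average (1341). Without 1 library the lowest counts were 164 in WT cells (WT baseline replicate 2) and 202 in Adcy10-/- cells (KO baseline replicate 1), and only the compared groups gave 285 in WT cells. Where the pairing was in doubt, the block gave 0 members for the genotype effect in baseline media, on average and for the interaction. The averaged genotype difference of Ddit3 had adjusted p = 0.053 with the block, and 3 other genes passed. Counts and depth are not in the files, so what depth limits cannot be given, and Cth could not be tested at its level.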

Other observations

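The 4 kinases that phosphorylate eIF2 were measured in each library, and were singled out after their values were seen. Eif2ak1, the heme-regulated kinase gene, had the highest level, at 27.9 to 31.98 FPKM. Eif2ak4, which encodes the amino acid sensor GCN2, held 3.96 to 6.52 FPKM. Eif2ak3, which encodes the ER sensor PERK, held 2.62 to 3.603 FPKM, and Eif2ak2, which encodes the RNA sensor PKR, held 2.21 to 3.88 FPKM. The ranges of Eif2ak3 and Eif2ak2 overlap, the lowest value of Eif2ak4 lies above both, and that of Eif2ak1 lies above the other 3. With cytokines, Eif2ak4 gave an averaged log2 change of -0.17 (limma adjusted p = 0.339) and Eif2ak3 of 0.11 (0.288), and neither passed.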
